A study of Mus musculus with 18 samples.

Results

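The embryonic globin genes Hba-x, Hbb-bh1 and Hbb-y were followed in mouse heart under 2 forms of hypoxia. They were taken by their gene symbol on the array and occupied 6 of 28704 spots: 1 spot each for Hba-x and Hbb-bh1, and 1 clone spotted 4 times for Hbb-y. The values that drew attention to these genes are the ones described here, so their levels and differences are given as a description, without a test. The groups were untreated control mice, mice in chronic constant hypoxia (CCH) and mice in chronic intermittent hypoxia (CIH), each studied at 1, 2 and 4 weeks with 2 arrays a group, 18 arrays in all. Every array paired the heart of a male mouse (Cy5 dye) with that of a female mouse (Cy3 dye) from the same condition. Genotype, strain, age and oxygen level are not given in the sources used here, nor is whether a group's replicate arrays used different mice, so any p-value below measures the spread between arrays, which may be technical.

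Ratios are on the log2 scale, after the array median was set to 0. A value of 1 is a doubling and 0 is equal signal. Male heart was in Cy5 on every array, with no dye swap, so within a condition the sexes and the dyes cannot be told apart, and folds between the channels hold both. Nor does the ratio show whether hypoxia raised or lowered a globin in hearts of either sex, because a lower ratio can come from less RNA in males or more in females. The direction, male over female, was taken from Eif2s3y, a Y-linked translation factor gene, whose mean was above 0 on 17 of 18 arrays. The exception was replicate 1 of CIH at 4 weeks at -0.03, where the stronger of the 2 Eif2s3y spots (1.36 or more on all other arrays) had no value. The weaker spot alone also read below 0, at -0.15, on replicate 1 of the control at 4 weeks, so the direction of the CIH array is unsettled and not shown to be turned. Replicate 1 of CIH at 1 week is labelled CIH in its title but constant hypoxia of 2 weeks in its channel sources, and it was grouped by title. Replicate 1 of the control at 2 weeks carries a sample code of the 1-week series. The number of spots read per array was 20489 to 24512 at 1 week, 15802 to 19720 at 2 weeks and 12650 to 17904 at 4 weeks. Of 153 pairs of arrays, 11 correlated below -0.3 over all features. A ratio has no level, so the labelled tissue could not be checked by the abundance of heart markers, of which 10 of 19 cardiomyocyte genes had any value.

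Hemoglobin is built from alpha-like and beta-like chains encoded in separate gene clusters. The embryonic chains are made in primitive red cells of the yolk sac and are replaced by adult chains as definitive red cells take over. Hba-x encodes the alpha-like zeta chain, while Hbb-bh1 and Hbb-y encode beta-like chains. Erythroid factors such as GATA1 and KLF1 bind GATA and CACCC elements in the globin clusters, and BCL11A and SOX6 are known as repressors of the embryonic beta-like genes. In heart tissue, globin RNA is generally carried by the blood within it. In these bulk samples, a different number of red cells and a different amount of globin RNA per cell cannot be told apart, in hearts of either sex.

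Hba-x (Entrez gene 15126) lies on chromosome 11 between Nprl3 and the adult gene Hba-a1. Hbb-bh1 (15132) and Hbb-y (15135) are neighbours on chromosome 7. The alpha-like and the beta-like genes thus sit on different chromosomes. Promoters are printed for Hba-x and Hbb-y, whose ratios had a Pearson r of 0.79 across arrays. No promoter was available for Hbb-bh1, whose ratios were more like those of Hba-x (r 0.96). The sequences are the 250 bases before the transcription start in RefSeq (GRCm38.p6), which held 2 of the 3 genes, at chr11:32276350-32276599 on the plus strand for Hba-x and chr7:103853208-103853457 on the minus strand for Hbb-y. Capitals mark matches, on either strand, to the GATA core GATAA, the KLF core CACCC, the CCAAT box and the TATA-box letters ATAAA; the first capital run in Hbb-y joins a reversed GATAA with an ATAAA.
Hba-x: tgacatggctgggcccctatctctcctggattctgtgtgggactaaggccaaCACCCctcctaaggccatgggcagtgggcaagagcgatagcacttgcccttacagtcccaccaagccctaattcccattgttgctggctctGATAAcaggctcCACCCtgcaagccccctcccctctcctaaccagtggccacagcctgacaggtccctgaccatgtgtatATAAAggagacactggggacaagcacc
Hbb-y: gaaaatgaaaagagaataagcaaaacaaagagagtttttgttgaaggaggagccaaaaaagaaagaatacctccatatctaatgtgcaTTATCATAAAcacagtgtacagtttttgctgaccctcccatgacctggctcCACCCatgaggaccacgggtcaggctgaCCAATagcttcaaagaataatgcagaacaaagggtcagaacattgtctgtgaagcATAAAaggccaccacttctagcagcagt
Hba-x held GATAA at -107 to -103 from the start, CACCC at -198 to -194 and at -95 to -91, and ATAAA at -27 to -23. Hbb-y held GATAA on the opposite strand at -162 to -158, CACCC at -111 to -107, CCAAT at -83 to -79, and ATAAA at -28 to -24. Both windows held the GATA core, the KLF core and the TATA-box letters, a combination found in 6.07% of all 32851 RefSeq promoter windows of this length. The combination was not particular to the embryonic genes, since the window of the adult gene Hbb-bt held it too. Those of the adult genes Hba-a1, Hba-a2 and Hbb-bs held GATAA and CACCC without ATAAA. Taken alone, GATAA was in 22.6% of windows, CACCC in 52.0%, CCAAT in 33.8% and ATAAA in 37.3%. The matches are letters in a window, and no binding was measured here.

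In control hearts, Hba-x, the embryonic alpha-like chain, had ratios of 0.44 and -0.01 at 1 week, -0.98 and 0.49 at 2 weeks, and 0.85 and 0.97 at 4 weeks. Under CCH the Hba-x ratios were 0.47 and 0.24 at 1 week, -1.72 and 0.23 at 2 weeks, and 0.95 and 0.08 at 4 weeks. Under CIH they were -0.79 and 0.22 at 1 week, -1.64 and -1.97 at 2 weeks, and -1.27 and -0.50 at 4 weeks. The CIH arrays of 2 and 4 weeks were all below 0, toward the female, and 1 control array and 1 CCH array, both of 2 weeks, were lower than the highest of them. The mean over 6 arrays was 0.29 ± 0.71 (SD) in controls, 0.04 ± 0.91 in CCH and -0.99 ± 0.80 in CIH.

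Hbb-bh1, an embryonic beta-like chain, followed nearly the same course. Its control ratios were -0.18 and -0.05 at 1 week, -0.70 and 0.57 at 2 weeks, and 1.32 and 1.20 at 4 weeks. Its CCH ratios were 0.64 and 0.22, then -2.09 and 0.13, then 0.46 and 0.06. Its CIH ratios were -0.91 and 0.31, then -1.37 and -2.60, then -1.68 and -0.70. The lowest Hbb-bh1 value of all 18 arrays was thus in CIH at 2 weeks and the highest in a control of 4 weeks. Means over 6 arrays were 0.36 ± 0.81 (SD) in controls, -0.096 ± 1.00 in CCH and -1.16 ± 0.98 in CIH.

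Hbb-y, the other embryonic beta-like chain, departed from this course under CIH, relative to controls of the same week mainly at 1 week. Its control ratios were -0.35 and -0.48 at 1 week, -0.39 and 0.79 at 2 weeks, and 2.18 and 1.52 at 4 weeks. Its CCH ratios were 0.44 and -0.44, then -2.66 and 0.89, then 0.93 and 0.25. Its CIH ratios were 0.22 and 1.20, then -0.39 and -2.30, then 0.09 and -0.55. 3 of the 6 CIH arrays were above 0, and both CIH arrays of 1 week lay above both controls of 1 week. Means over 6 arrays were 0.55 ± 1.13 (SD) in controls, -0.098 ± 1.35 in CCH and -0.29 ± 1.16 in CIH.

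**Figure D1:**
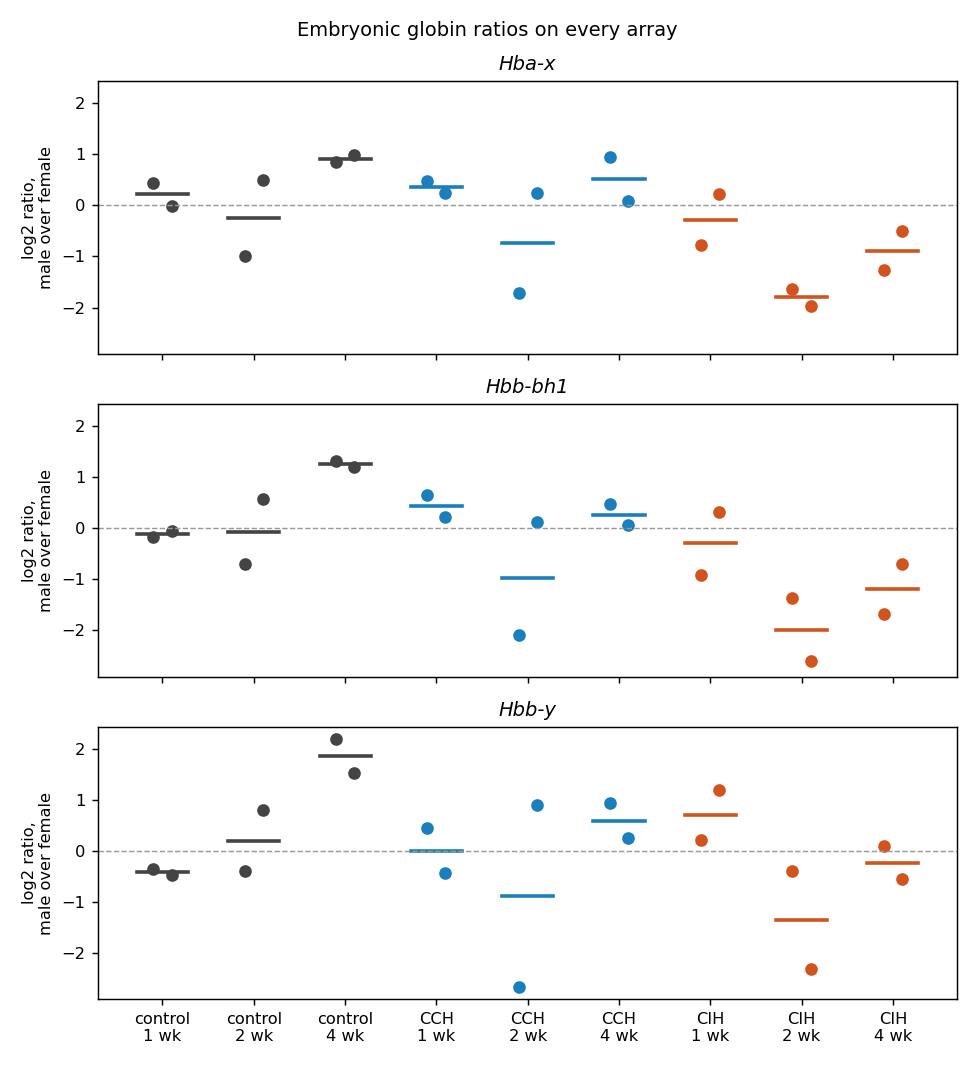
Log2 ratio, male over female, of Hba-x, Hbb-bh1 and Hbb-y on each of 18 arrays (points, replicate 1 left, replicate 2 right) by condition and week, with the mean of each pair as a bar. The pairs of CIH at 2 weeks average -1.80, -1.98 and -1.35, the lowest of the 9 groups for each gene, and the controls at 4 weeks average 0.91, 1.26 and 1.85, the highest.

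For all 3 genes, CIH at 2 weeks was the lowest of the 9 groups and the control at 4 weeks the highest. In CIH at 2 weeks the female signal exceeded the male signal 3.49-fold for Hba-x, 3.95-fold for Hbb-bh1 and 2.54-fold for Hbb-y. At the other end, the male signal of the 4-week controls exceeded the female signal 1.88-fold for Hba-x, 2.39-fold for Hbb-bh1 and 3.61-fold for Hbb-y. Between these ends most of the order was not resolved: 7 of 8 neighbouring pairs of groups had overlapping arrays for each gene. The pairs of neighbours that did not overlap were CIH at 2 and 4 weeks for Hba-x, CCH at 1 week and control at 4 weeks for Hbb-bh1, and CIH at 1 week and control at 4 weeks for Hbb-y.

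The replicates of a group differed widely. The pooled SD between arrays of a group was 0.70 for Hba-x, 0.78 for Hbb-bh1 and 1.07 for Hbb-y, against a median of 0.28 over the 7577 features with a value on all arrays. Of these features, 99.1%, 99.6% and 99.9% had a smaller SD than Hba-x, Hbb-bh1 and Hbb-y. The widest gaps, 1.95, 2.21 and 3.55, were all between the CCH arrays of 2 weeks. For Hbb-y the pooled SD between its 4 spots on an array was 0.21, so its spread lay mostly between arrays. In replicate 1 of CCH at 2 weeks 3 of the 4 spots had a value, and they read -2.70, -2.65 and -2.62. The spots disagreed most on the CCH arrays of 4 weeks, where copy 4 read 0.20 and -0.36 while the other 3 copies read 1.05 to 1.25 and 0.31 to 0.55. In replicate 2 of CIH at 2 weeks the Hbb-y value rests on 2 spots.

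**Figure D2:**
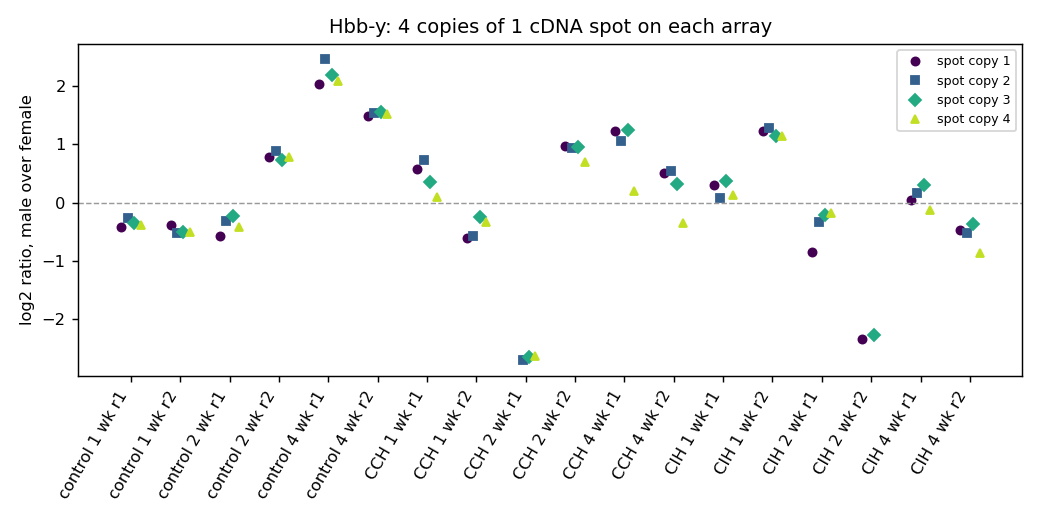
Log2 ratio, male over female, of the 4 copies of the Hbb-y spot on each of 18 arrays, labelled by condition, week and replicate (r1, r2). The copies lie close together on most arrays, with a pooled SD of 0.21, while the arrays of CCH at 2 weeks lie 3.55 apart; copy 4 reads low on both CCH arrays of 4 weeks.

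Averaged over the 3 durations, CIH minus control was -1.28 for Hba-x (SE 0.33 from the limma fit), -1.52 for Hbb-bh1 (SE 0.36) and -0.84 for Hbb-y (SE 0.49). Ordered from the lowest of 10272 features, these differences ranked 56, 19 and 221, where 98% of features lay between -1.12 and 0.53. CCH minus control was smaller for each gene, at -0.25 (SE 0.33), -0.45 (SE 0.36) and -0.64 (SE 0.49), ranks 1542, 200 and 20. There 98% of features lay between -0.51 and 0.49. Hbb-y thus lay outside these bounds under CCH but inside those of CIH, and Hba-x and Hbb-bh1 the reverse. These comparisons share the control arrays. CCH minus CIH was 1.03 for Hba-x, 1.06 for Hbb-bh1 and 0.19 for Hbb-y. For Hbb-y the sign of CCH minus CIH was not stable: it was -0.40 without replicate 2 of CCH at 2 weeks, -0.13 without replicate 2 of CIH at 2 weeks and -0.0094 with arrays scaled to a common spread. The CCH differences rested on replicate 1 of 2 weeks: without it, CCH minus control was 0.075 for Hba-x, -0.085 for Hbb-bh1 and -0.052 for Hbb-y. Without that array, CCH minus CIH was 1.36, 1.43 and 0.78. For Hbb-y, CIH minus control was -0.52 without replicate 2 of CIH at 2 weeks.

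By duration, the CIH difference from control was below 0 for all 3 genes at 2 and 4 weeks, while at 1 week its sign was unsettled for Hba-x and Hbb-bh1. At 1 week it was -0.49 for Hba-x (SE 0.57), -0.18 for Hbb-bh1 (SE 0.63) and 1.13 for Hbb-y (SE 0.85). Without the array of conflicting labels, or with it regrouped by its channel sources, it was 0.01, 0.42 and 1.61, and without the other CIH array -0.999, -0.79 and 0.64. At 2 weeks it was -1.55, -1.91 and -1.55, and at 4 weeks -1.80, -2.45 and -2.08 in the same order. Both CIH arrays lay below both control arrays for 3 of 3 genes at 2 weeks, as did 36.1% of the 7577 features, and for 3 of 3 genes at 4 weeks, as did 13.1%. The count at 4 weeks rests on the direction of replicate 1 of CIH: turned in sign, it would read 1.27 for Hba-x and 1.68 for Hbb-bh1, and only Hbb-y would lie below both controls, as would 15% of features. At 4 weeks the controls themselves were far above 0, at 0.91, 1.26 and 1.85, and the CIH means were -0.89, -1.19 and -0.23. For Hba-x and Hbb-bh1 the controls thus lay about as far from 0 as CIH did. Most of the Hbb-y difference lay in the controls. Over all durations no gene separated the 6 CIH arrays from the 6 controls, and none separated CCH from control, whereas 0.251% of features had every CIH array below every control and 0.0396% every CCH array. Scaled to a common spread, the arrays of 2 weeks gave -0.50, -0.93 and -0.90. Without replicate 2 of the control the difference at 2 weeks was -0.82, -1.28 and -0.96, and without replicate 2 of CIH that of Hbb-y was -0.60. For Hbb-y, both CIH arrays exceeded both controls at 1 week, as did 10.2% of features.

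Under CCH the 3 genes had differences from control of 0.14, 0.55 and 0.42 at 1 week, -0.49, -0.91 and -1.09 at 2 weeks, and -0.40, -0.999 and -1.26 at 4 weeks. At 1 week Hba-x was at -0.08 without replicate 2 of the control and at 0.54 with the control coded for 1 week regrouped, and Hbb-y at -0.02 without replicate 1 of CCH and at 0.86 without replicate 2. At 1 week both Hbb-bh1 arrays lay above both controls, as did 22% of features. At 4 weeks both CCH arrays of Hbb-bh1 and of Hbb-y lay below both controls, as did 23.3% of features. The difference at 2 weeks was 0.48, 0.20 and 0.69 without replicate 1 and -1.47, -2.02 and -2.86 without replicate 2, so its sign rested on a single array for each gene.

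**Figure D3:**
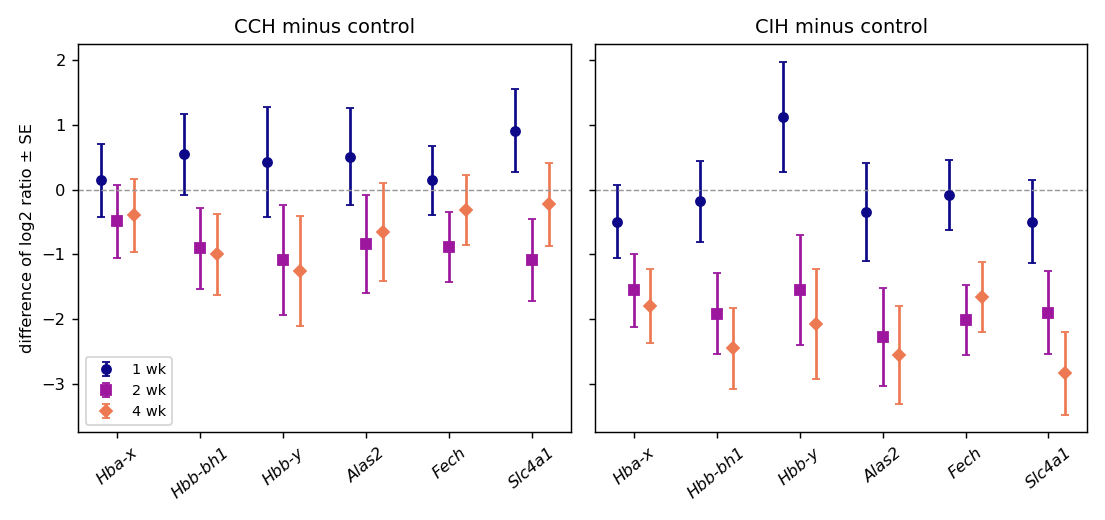
Difference of the log2 ratio from control under CCH (left) and CIH (right) at 1, 2 and 4 weeks for the 3 embryonic globins and 3 red-cell genes; bars are ± 1 SE from the limma fit, with 2 arrays in each group. Under CIH every gene is below 0 at 2 and 4 weeks, and Hbb-y alone is above 0 at 1 week, at 1.13.

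The direction of the ratio on replicate 1 of CIH at 4 weeks touches these results. With that array turned in sign, CIH minus control was -0.86 for Hba-x, -0.96 for Hbb-bh1 and -0.87 for Hbb-y, and at 4 weeks alone -0.52, -0.77 and -2.18. The averaged differences then ranked 78, 47 and 74 from the lowest of 10272 features. With this array and the one of conflicting labels both left out, the averaged difference was -0.98, -1.15 and -0.78.

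Across the 18 arrays Hba-x and Hbb-bh1 had a Pearson r of 0.96 and a Spearman rho of 0.94, although they lie on different chromosomes. Within controls r was 0.88, within CCH 0.97 and within CIH 0.95, over 6 arrays each. Hbb-bh1 and its chromosomal neighbour Hbb-y had an r of 0.85, and Hba-x and Hbb-y an r of 0.79. Without replicate 1 of CCH and replicate 2 of CIH at 2 weeks, the arrays farthest from the median, r was 0.94, 0.71 and 0.63. All features on an array share its hybridization and RNA, and these correlations are descriptions. Whether cDNA spots of one globin also bind transcripts of another was not tested.

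**Figure D4:**
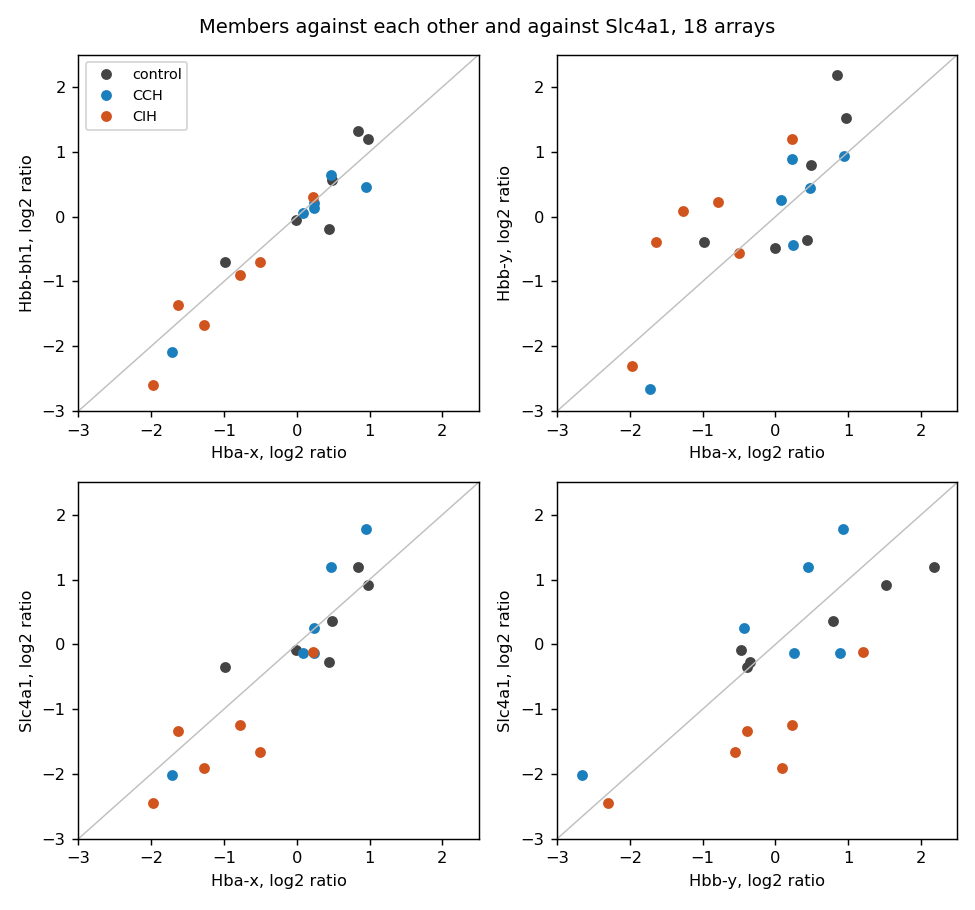
Log2 ratios, male over female, on 18 arrays, coloured by condition: Hbb-bh1 and Hbb-y against Hba-x (top), Slc4a1 against Hba-x and against Hbb-y (bottom), with the line of equality. Hbb-bh1 follows Hba-x (r 0.96), while several CIH arrays lie above the line for Hbb-y against Hba-x and below it for Slc4a1 against Hbb-y.

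The distance of Hbb-y from the mean of the other globins shows where it departs. In CIH this distance was 1.07 and 0.93 at 1 week, 1.11 and -0.02 at 2 weeks, and 1.57 and 0.05 at 4 weeks. 5 of 6 CIH arrays were above 0, and 4 of them were 0.93 or more, among them the array of conflicting labels (1.07) and the array of unsettled direction (1.57). In controls it was -0.48 and -0.45 at 1 week, 0.46 and 0.27 at 2 weeks, and 1.10 and 0.43 at 4 weeks. In CCH it was -0.12 and -0.67, then -0.76 and 0.71, then 0.23 and 0.18. The mean was 0.78 ± 0.63 (SD, n = 6) in CIH, 0.22 ± 0.60 in controls and -0.07 ± 0.56 in CCH, so the conditions overlapped. At 1 week the CIH mean was 1.00 and the control mean -0.46. These means were 0.55 and 0.36 at 2 weeks, and 0.81 and 0.77 at 4 weeks. Against controls of the same week, CIH thus departed mainly at 1 week. The CIH mean of 4 weeks includes the value of 1.57, which would change sign with that array turned.

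**Figure D5:**
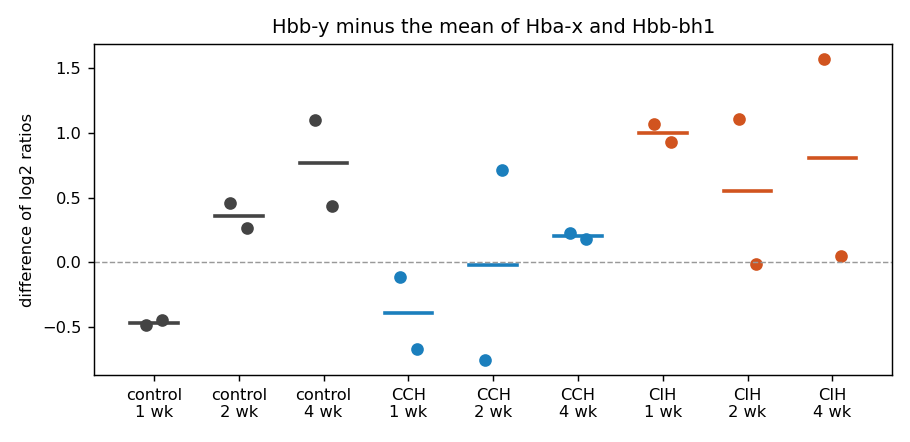
Hbb-y log2 ratio minus the mean of the Hba-x and Hbb-bh1 log2 ratios on each of 18 arrays (points) with the mean of each pair (bars). Both CIH arrays of 1 week, at 1.07 and 0.93, lie far above the controls of 1 week at -0.48 and -0.45.

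3 red-cell genes from the lists followed Hba-x and Hbb-bh1 closely across arrays and Hbb-y less closely, though the other genes of their lists varied widely in this. Slc4a1, the anion exchanger of the red-cell membrane, had control ratios of -0.28 and -0.09 at 1 week, -0.35 and 0.37 at 2 weeks, and 1.20 and 0.91 at 4 weeks. Its CCH ratios were 1.19 and 0.26, then -2.01 and -0.14, then 1.78 and -0.13. Its CIH ratios were -1.25 and -0.11, then -1.34 and -2.44, then -1.91 and -1.66. As for Hba-x, replicate 1 of CCH at 2 weeks stood apart from the other CCH arrays. Its r was 0.91 with Hba-x, 0.92 with Hbb-bh1 and 0.75 with Hbb-y. Alas2, the first enzyme of heme synthesis in red cells, had r of 0.93, 0.91 and 0.75, and Fech, which inserts iron to complete heme, 0.89, 0.88 and 0.73. Without the 2 arrays farthest from the Hbb-y median, r with Hbb-y was 0.61 for Slc4a1, 0.58 for Alas2 and 0.54 for Fech.

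CIH minus control was -1.74 for Slc4a1 (limma adjusted p = 0.0521), -1.73 for Alas2 (adjusted p = 0.0661) and -1.25 for Fech (adjusted p = 0.0634), none of which passed 0.05. In that comparison 0.00974% of 10272 features were called, a single gene, Phtf1 (-1.64, limma adjusted p = 0.00538). A further 104 features, all with a lower male-over-female ratio in CIH, shared the next adjusted p of 0.0521, and 1307 features had an unadjusted p under 0.05. None of the red-cell lists had a called gene: 0 of 12 measured genes of heme synthesis (median -0.14), 0 of 14 of red cell membrane and gas transport (-0.05), 0 of 8 of erythroid maturation (-0.33) and 0 of 14 globin-locus regulators (0.03), beside a median of -0.01 over all features. The calls depended on the setting: of 28 alternatives, Slc4a1 was called in 9, Fech in 6, Alas2 in 4 and Car2 in 2, each time with a lower ratio in CIH. Other list genes, named after their values were seen, were Blvrb, a biliverdin reductase (called in 11), Bpgm, the bisphosphoglycerate mutase of red cells (9), Flvcr1, a heme exporter (9), and Bnip3l, which acts in the clearance of mitochondria (4), all with a lower ratio in CIH. Leaving out either replicate of CCH at 2 weeks, a group outside this contrast, raised the calls over all features. Leaving out replicate 1 of the control at 2 weeks raised them too, as did leaving out replicate 2 of CIH at 1 week or at 4 weeks. In CCH minus control no feature was called by limma (0%, with 649 at an unadjusted p under 0.05), and Slc4a1, Alas2 and Fech were at -0.13, -0.33 and -0.35.

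Of the genes with values on at least 15 arrays, 4 of 12 in heme synthesis had an r above 0.8 with the mean of the 3 globins, 2 of 14 in red cell membrane and gas transport, 2 of 8 in erythroid maturation and 1 of 13 globin-locus regulators, beside 3.0% of all 7031 genes. The median r was 0.23 in heme synthesis (lowest -0.75), 0.36 in membrane and gas transport, 0.56 in maturation (lowest -0.52) and 0.35 in the regulators, beside -0.05 over all genes. Over all arrays with a value, the regulators described here had lower correlations than Slc4a1, Alas2 and Fech, a difference that was not tested. This does not hold for the whole regulator list, whose highest r with the mean of the 3 globins was 0.87. That gene is not described here, and Fech had 0.87, Slc4a1 0.90 and Alas2 0.90. Klf1, an activator of adult beta-globin, had r of 0.57, 0.63 and 0.63 with Hba-x, Hbb-bh1 and Hbb-y over 16 arrays, and 0.48, 0.20 and 0.08 without the 2 arrays farthest from the globin's median, replicate 1 of CCH at 2 weeks among them. Gata1, the leading red-cell GATA factor, had 0.60, 0.48 and 0.59 over 12 arrays, and Tal1, its partner, 0.51, 0.60 and 0.45. Without the 2 arrays farthest from the globin's median, Gata1 had 0.43, 0.54 and 0.77. Its r with Hbb-y was then above those of Slc4a1 (0.61), Alas2 (0.58) and Fech (0.54), but these rest on different arrays. The values of Slc4a1, Alas2 and Fech come from 18 arrays and leave out replicate 2 of CIH at 2 weeks. For Gata1, replicate 2 of the control at 4 weeks was left out instead. Gata1 had no value on replicate 2 of CIH at 2 weeks or replicate 1 of CIH at 4 weeks. Bcl11a, a repressor of embryonic beta-like genes, had -0.05, -0.21 and 0.04. Tfrc, the transferrin receptor of immature red cells and other dividing cells, ran the other way, at -0.50, -0.62 and -0.39. Car2, a carbonic anhydrase, had 0.77, 0.74 and 0.60 over 15 arrays. In CIH minus control Klf1 was at 0.03, Gata1 at 0.14, Tal1 at -0.29, Bcl11a at 0.35, Tfrc at 0.25 and Car2 at -1.20, and none was called. Epor had a value on 4 arrays and Nfe2 on 3.

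Among the other globins, Hbq1a, an alpha-like theta gene, had values on 13 arrays and r of 0.88 with Hba-x, 0.92 with Hbb-bh1 and 0.68 with Hbb-y. Its CIH ratios were -0.88 and 0.13 at 1 week and -0.98 and -0.63 at 4 weeks, with none at 2 weeks. Its lowest ratio, -1.45, was in replicate 1 of CCH at 2 weeks, where the embryonic genes were also low. Ngb, neuroglobin, had r of -0.21, -0.28 and -0.28 over 12 arrays. The adult globins could hardly be followed: their 11 spots, 9 of them annotated to several genes, held 30 of 198 possible values. Hbb-b1 alone had 2 values, 0.32 and 1.18. The adult spot with the most values had them on 10 arrays, from -1.65 in CIH at 2 weeks to 1.62 in CCH at 4 weeks, with an r of 0.84 to the mean of the embryonic genes.

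Markers of other cells were followed beside the globins. Of 13 leukocyte and macrophage genes with a value on at least 15 arrays, none had an r above 0.8 with the mean of the 3 globins, nor did any of 3 neutrophil, 3 platelet, 8 endothelial, 6 cardiomyocyte, 8 fibroblast and 2 lung genes, beside 3.0% of 7031 genes, a share at which lists this short could hold none. Their median r was 0.49 for neutrophil, 0.51 for platelet, 0.32 for lung, 0.21 for leukocyte, 0.05 for fibroblast, -0.13 for endothelial and -0.23 for cardiomyocyte genes, so the neutrophil and platelet medians exceeded that of heme synthesis (0.23). The median ratio of the leukocyte list ran from -0.56 to 0.17 over control arrays, -0.69 to -0.08 over CCH and -0.62 to -0.14 over CIH. That of the platelet list ran from -0.06 to 0.31 over control arrays, -0.87 to -0.04 over CCH and -0.48 to 0.58 over CIH. The lung list, with 2 genes, ranged from -0.58 to 0.07 over controls, -2.11 to 1.68 over CCH and -2.44 to -0.06 over CIH. The neutrophil list ranged from -0.27 to 0.71 over controls, -0.70 to 0.69 over CCH and -0.90 to 0.29 over CIH. The cardiomyocyte list ranged from -0.74 to 0.60, -0.18 to 0.54 and -0.55 to 0.64 in the same order. The endothelial list lay between -0.26 and 0.33 and the fibroblast list between -0.25 and 0.38 over all arrays. The part of these cells in the globin ratios was not tested.

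The profile of the globins was shared with many genes. Among 7033 named genes with values on at least 15 arrays, 230 (3.27%) had an r above 0.8 with Hba-x, 223 (3.17%) with Hbb-bh1 and 32 (0.455%) with Hbb-y. The 10 genes most like the mean of the 3 were Pgm2 (r 0.97), Cwf19l1 (0.96), Hoxb6, Oxsr1, Mad2l2, Zwilch, Parp16, Mmp9, Cnnm1 and 1500011B03Rik (0.94). Nearest to Hba-x were Entpd7 (0.97), Mad2l2 and Zwilch, nearest to Hbb-bh1 Cwf19l1 (0.98), Nxf2 and Pgm2, and nearest to Hbb-y Prdm11 (0.93), Zfp746 and Parp16. Hba-x was itself 9th in likeness to Hbb-bh1, and Hbb-bh1 16th to Hba-x, while Hbb-y was 256th to Hba-x and 157th to Hbb-bh1. In likeness to Hbb-y, Hbb-bh1 was 6th and Hba-x 46th. The 5 genes least like the mean were Wdr82 (-0.82), H1f8, Ccsap, Lpp and Slu7.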

How the data were processed

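The authors deposited 1 table of log2 ratios between the Cy5 and Cy3 channels of 18 two-colour cDNA arrays. The direction, Cy5 over Cy3, was taken from Eif2s3y. Base 2 was settled from the values, since the linear ratio averages 1 on every array. Background correction, spot filter and normalization are not given in the sources used here. Spots were named from GEO's platform annotation (18511 with 1 symbol, 937 with several, 9256 with none). Array medians were set to 0 and a gene's spots averaged. All 10272 units (genes, or spots without a single symbol) with a value in each of 9 groups entered 1 fit of 9 group means (limma 3.58.1, R 4.3.3; eBayes with a prior SD of 0.269 on 5.95 degrees of freedom). Tests were two-sided at a Benjamini-Hochberg adjusted p of 0.05; the code was tested on simulated data. The number of arrays limits the precision.

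The 3 genes and the gene lists were chosen with earlier results of these data known. The other genes named were all measured globins, called list genes, 16 listed red-cell genes, Eif2s3y, and the genes most and least like the globins by Pearson r. Phtf1, Blvrb, Bpgm, Flvcr1 and Bnip3l were named after their values were seen. Alternatives changed centring, scaling, spot summary, missing values, labels, direction and arrays.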

Additional observations from a re-analysis of the deposited data

Results flagged for a closer look

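In the 6 CCH arrays, replicate 1 of 2 weeks lay far from the others for Hba-x (-1.72, the others 0.08 to 0.95) and Hbb-bh1 (-2.09, the others 0.06 to 0.64). Both values come from the same array and from genes whose ratios move together (r 0.96), so they are 1 observation, and they are given as a description. The replicate of that array read 0.23 and 0.13.

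Every CCH array of Hbb-bh1 lay above the controls at 1 week (difference 0.55), as for 22% of features, and below them at 4 weeks (-0.999), as for 23.3%. Every CIH array of Hbb-y lay above the controls at 1 week (1.13), as for 10.2% of features, and below them at 2 weeks (-1.55), as for 36.1%, and 4 weeks (-2.08), as for 13.1%. Such separation is thus common with 2 arrays a group. These changes with duration were not tested.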

How the results depend on the processing

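The averaged CIH minus control difference of Hba-x, Hbb-bh1 and Hbb-y stayed below 0 in 28 of 28 alternatives (-1.53 to -0.86, -1.73 to -0.96 and -1.15 to -0.49). CCH minus control stayed below 0 in 27 of 28 for Hba-x and 28 of 28 for the others, and CCH minus CIH above 0 in all but 3 for Hbb-y (-0.40 to 0.78). The count of features called in CIH minus control, 1 in the reported fit, was 192 without centring, 115 with the median of spots, 190 with spots present on all arrays, 278 with the control coded 1A regrouped, and 0 with arrays scaled, with the array turned by Eif2s3y, or with both doubtful CIH arrays left out, an alternative chosen after seeing the data. Leaving out 1 array gave 1 to 305 there, 0 to 196 in CCH minus CIH and 0 to 1 in CCH minus control. CCH minus CIH had 1 call, Phtf1, and 0 with scaling, spots on all arrays, the turned array or both arrays left out. Whether the replicate letters pair the arrays was not settled: 14 of 36 group pairs deviated together with r above 0.1 (range -0.54 to 0.45). With the replicate block 169 features were called in CIH minus control. The cause of these shifts was not tested. Signal over background is unknown, since only ratios were used.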
